A study of Canis lupus familiaris and Felis catus with 4 samples.

Results

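The miR-26 family was followed through the urinary exosome (UExo) small RNA of cats and dogs. Its members were the mature miRNA entries named mmu-miR-26a-5p and mmu-miR-26b-5p in the deposited table, which are 2 of its 1898 mature names and 3 of its 2031 entries, because miR-26a-5p is listed at 2 genomic copies. The libraries were 1 pool each of 45 cats with kidney disease (KD), 43 cats with normal renal function (NR), 47 KD dogs and 37 NR dogs. The labels give no treatment, age, sex or breed. By the study's methods the cats were hospital patients, grouped by serum markers and diagnosis with the KD cats the older, so the KD cat pool mixes diagnoses and stages. Cells were spun out of the urine before a column kit took up the exosome-rich fraction, so vesicles of any urinary tract cell could enter the RNA. The reads of both species were placed on the mouse genome (mm10).

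MicroRNAs are short RNAs that lower the output of messenger RNAs to which their 5' end, the seed, can pair. The miR-26 genes lie in introns of the CTDSP genes, which encode small phosphatases that act on the tail of RNA polymerase II. In the dog gene table (RefSeq, assembly UU_Cfam_GSD_1.0) MIR26A-1 lies within CTDSPL, MIR26A-2 within CTDSP2 and MIR26B within CTDSP1. miR-26 is known to repress the histone methyltransferase EZH2. In the kidney miR-26a is known from podocytes, the cells that cover the glomerular capillaries, and from work on TGF-beta signalling.

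The 2 mature sequences are shown to make plain how little separates the members when reads are counted. They are printed 5' to 3' as the deposited table gives them, with T for U, and the capitals mark the seed (bases 2 to 8).

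mmu-miR-26a-5p: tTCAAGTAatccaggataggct

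mmu-miR-26b-5p: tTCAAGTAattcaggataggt

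Both members had the same seed, and no other of the 2031 entries carried it. Counted from the 5' end, the substitutions of miR-26b-5p relative to miR-26a-5p were C11T and C21T, and miR-26a-5p was 22 bases long against 21 bases for miR-26b-5p. The first 10 bases were identical. The copies of miR-26a-5p lie on the plus strand of mm10 chromosomes 10 (126995543 to 126995564) and 9 (119031811 to 119031832) and carry 1 sequence, so a read of the mature form fits both. miR-26b-5p lies on the plus strand of chromosome 1 (74394324 to 74394344). The mismatches allowed in alignment are not given in the sources used here, and the part that cross-placed reads of these near-identical members could have in the counts was not tested. The same holds for feline or canine bases that differ from the mouse.

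The opposite arms of these hairpins were not detected. mmu-miR-26a-1-3p, mmu-miR-26a-2-3p and mmu-miR-26b-3p had 0 reads in all 4 libraries, and 3 reads would be 0.0126% of the miRNA reads in KD cats, 0.0160% in NR cats, 0.00474% in KD dogs and 0.0144% in NR dogs.

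Mature miRNAs took 23784 reads in KD cats, 18704 in NR cats, 63355 in KD dogs and 20878 in NR dogs. A normalized value, as deposited, equalled the log2 count plus 1 constant per library, so normalized levels below are the count times a factor, 2.36 in KD cats, 1.16 in NR cats, 0.531 in KD dogs and 0.689 in NR dogs. For 1 of the scalings the entries of the miR-10 pair and of miR-3107 with miR-486 were set aside (the set-aside entries), and all other entries held 13.9% of the reads in KD cats, 52.1% in NR cats, 19.6% in KD dogs and 23.6% in NR dogs. With 1 library per group there was no replicate, and neither a test nor an SD was possible. The 95% intervals below are exact ones for counts and cover counting error only, not the spread between animals.

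miR-26a-5p was detected in every library, and its copies had almost the same counts. The chromosome 10 copy had 51 reads in KD cats, 171 in NR cats, 489 in KD dogs and 201 in NR dogs. The chromosome 9 copy had 51 reads in KD cats, 167 in NR cats, 489 in KD dogs and 209 in NR dogs. The copies were thus equal in both KD libraries, and the chromosome 9 copy held between 49.4% (95% interval 44.0 to 54.9%, NR cats) and 51.0% (46.0 to 55.9%, NR dogs) of the summed reads. In the other 7 pairs of entries that share 1 mature sequence and have at least 10 summed reads in each library, the larger copy held between 51.2% and 90.0% of the reads. How the authors counted a read with several locations is not stated. If each read was entered at both copies, the sum counts it once too often and its interval is too narrow, so values of the larger copy alone are set beside those of the sum.

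Summed over both copies, miR-26a-5p had 102 reads in KD cats, 338 in NR cats, 978 in KD dogs and 410 in NR dogs. These were normalized levels of 240 (95% interval 196 to 292), 391 (351 to 435), 519 (487 to 553) and 283 (256 to 311) in the same order of libraries. The KD dogs were the highest and the KD cats the lowest. Of neighbours in that order, KD dogs stood above NR cats by a log2 ratio of 0.41 (0.23 to 0.59) and NR cats above NR dogs by 0.47 (0.26 to 0.68), whereas NR dogs and KD cats did not differ beyond counting error (0.23, -0.08 to 0.56). The larger copy alone gave the same order and the same overlaps.

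miR-26b-5p was the minor member, with 8 reads in KD cats, 32 in NR cats, 49 in KD dogs and 33 in NR dogs. Its normalized levels were 18.9 (8.14 to 37.1) in KD cats, 37.0 (25.3 to 52.3) in NR cats, 26.02 (19.2 to 34.4) in KD dogs and 22.7 (15.7 to 31.9) in NR dogs. The KD cats were again the lowest, but no neighbours in the order of its levels differed beyond counting error. The KD cat library was the lowest of the 4 for miR-26a-5p and for miR-26b-5p under each of the 6 scalings tried, although the order of the other libraries changed.

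**Figure D1:**
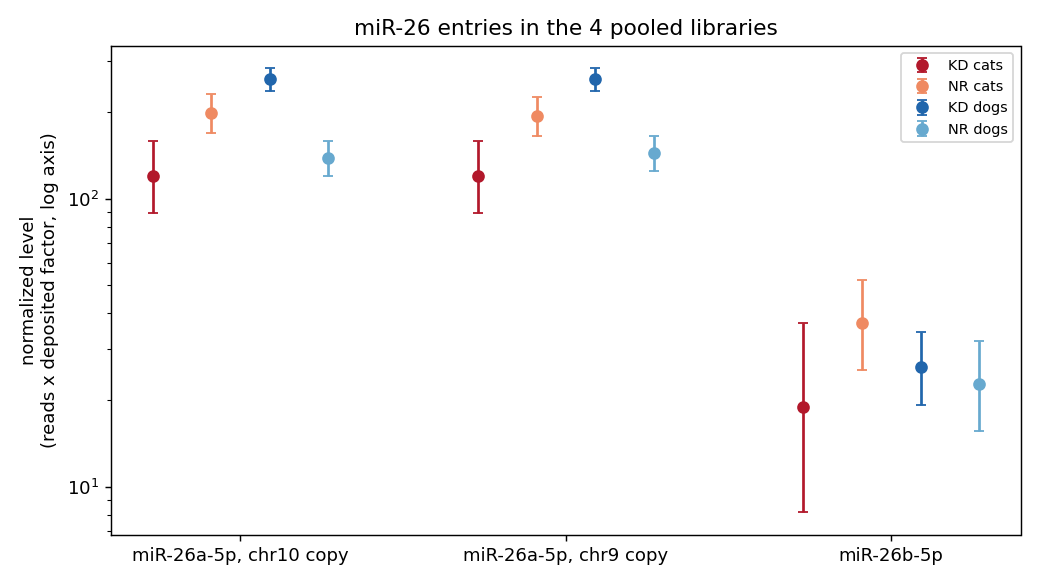
Normalized levels (read count times the deposited factor, log axis) of the 2 copies of miR-26a-5p and of miR-26b-5p in the pooled libraries of KD cats, NR cats, KD dogs and NR dogs. Points are single libraries and bars are 95% counting intervals. The 2 copies of miR-26a-5p are nearly equal within each library, and miR-26b-5p lies lower in all 4.

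As a share of all miRNA reads, miR-26a-5p made up 0.429% in KD cats (95% interval 0.350 to 0.520%) and 1.81% in NR cats (1.62 to 2.01%), against 1.54% in KD dogs (1.45 to 1.64%) and 1.96% in NR dogs (1.78 to 2.16%). The share in KD cats stood apart from the other 3 libraries. With the set-aside entries left out of the total, the same counts made up 3.08% in KD cats (2.51 to 3.72%), 3.47% in NR cats (3.11 to 3.85%), 7.87% in KD dogs (7.40 to 8.35%) and 8.32% in NR dogs (7.57 to 9.13%). On this base the KD and NR intervals of each species overlapped, and both cat libraries lay below both dog libraries. Ranked by reads among all entries, the larger copy of miR-26a-5p stood at place 21 in KD cats, 20 in NR cats, 12 in KD dogs and 9 in NR dogs. miR-26b-5p stood at place 53 in KD cats, 41 in NR cats, 43 in KD dogs and 31 in NR dogs.

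KD cats had lower values of both members than NR cats. The log2 fold change on the normalized values was -0.70 for summed miR-26a-5p (95% interval -1.04 to -0.38), -0.72 for its larger copy (-1.20 to -0.26) and -0.97 for miR-26b-5p (-2.30 to 0.17). The interval of miR-26b-5p, which rests on 8 reads in KD cats, included 0. Neither member was past 2-fold on this scale, whereas 35.4% of the 79 entries with a mean normalized level of at least 10 were lower by over 2-fold. With 1 added to each level, the median log2 change of these 79 entries was -0.54, and summed miR-26a-5p stood at -0.16 and miR-26b-5p at -0.39 relative to it. A lower change than that of miR-26a-5p was seen for 36 of the 79 entries, and a lower one than that of miR-26b-5p for 28. The change of miR-26a-5p in cats was therefore close to the middle of all entries.

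The size of this difference followed the scaling. Summed miR-26a-5p was lower in KD cats whichever of the 6 scalings was used, with log2 values between -2.08 on total count scaling and -0.17 with the set-aside entries left out of the total, where the interval (-0.51 to 0.15) included 0. It was past 2-fold under 2 of the 6, read counts without scaling (-1.73) and total count scaling. miR-26b-5p was also lower under all 6, from -2.35 to -0.44, with an interval below 0 under 2 of them. A scaling moves all entries alike, so the median of the 79 entries moved with it, to -0.42 with edgeR factors, to -1.92 on total counts and to -0.015 with the set-aside entries left out, and the place of miR-26a-5p relative to it stayed.

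In dogs the values on the deposited scale ran the other way. The log2 fold change of KD dogs against NR dogs was 0.88 for summed miR-26a-5p (0.71 to 1.05), 0.85 for its larger copy (0.61 to 1.09) and 0.19 for miR-26b-5p (-0.47 to 0.88). Neither member was past 2-fold, whereas 51.9% of the 54 entries with a mean level of at least 10 were higher by over 2-fold. The median log2 change of these entries, with 1 added to each level, was 1.03. Relative to it summed miR-26a-5p stood at -0.15, with 22 of the 54 entries lower, and miR-26b-5p stood at -0.84, with 4 of the 54 lower. The whole counting interval of miR-26b-5p lay below that median. miR-26a-5p in dogs was thus also close to the middle of all entries, and miR-26b-5p was near their lower end.

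The direction in dogs changed with the scaling. Summed miR-26a-5p was higher in KD dogs under 4 of the 6 scalings and lower under 2, from -0.35 on total count scaling to 1.25 on read counts. The interval excluded 0 for 2 of the 4 higher values and for 1 of the 2 lower ones. With TMM factors computed by edgeR within dogs summed miR-26a-5p was at 0.05 (-0.12 to 0.22). With the median of ratios it was at 0.04 (-0.13 to 0.21), and both intervals included 0. miR-26b-5p was lower under 4 of the 6 scalings, from -1.03 on total count scaling to 0.57 on read counts, and its value was -0.63 (-1.30 to 0.05) with edgeR's TMM factors. The median of the 54 entries was 0.20 with those factors and -0.20 on total count scaling.

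**Figure D2:**
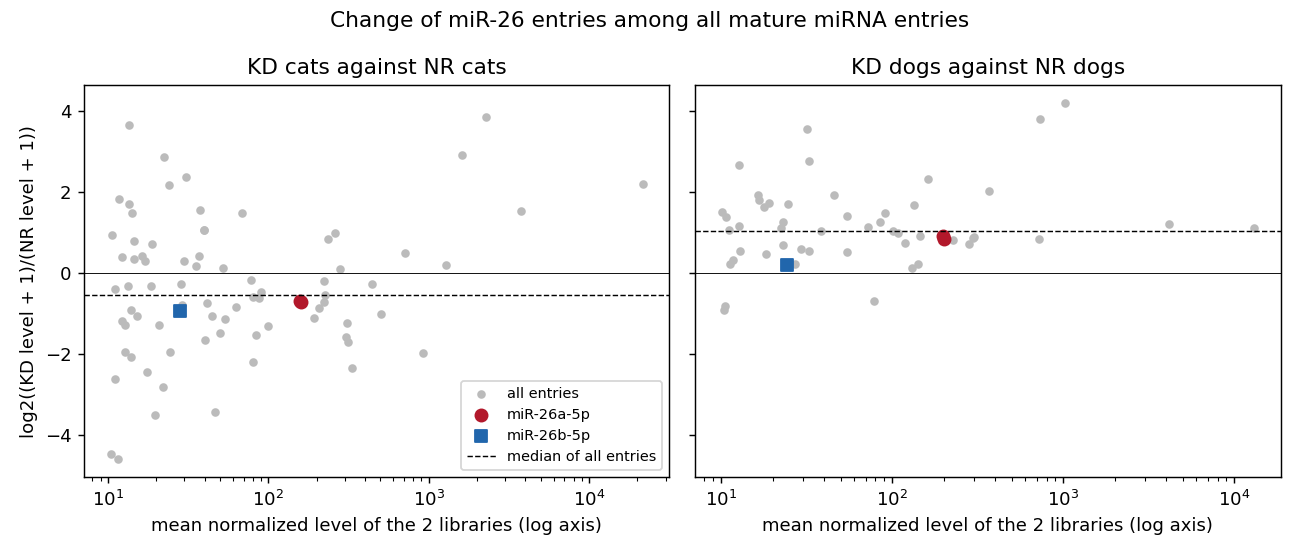
Log2 change of KD against NR, with 1 added to each level, over the mean normalized level (log axis) for the 79 entries in cats and 54 in dogs whose mean reached 10. Grey points are all entries, the dashed line is their median (-0.54 in cats, 1.03 in dogs), circles are the 2 copies of miR-26a-5p and the square is miR-26b-5p. miR-26a-5p lies near the dashed line in both species, and miR-26b-5p lies below it in both.

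**Figure D3:**
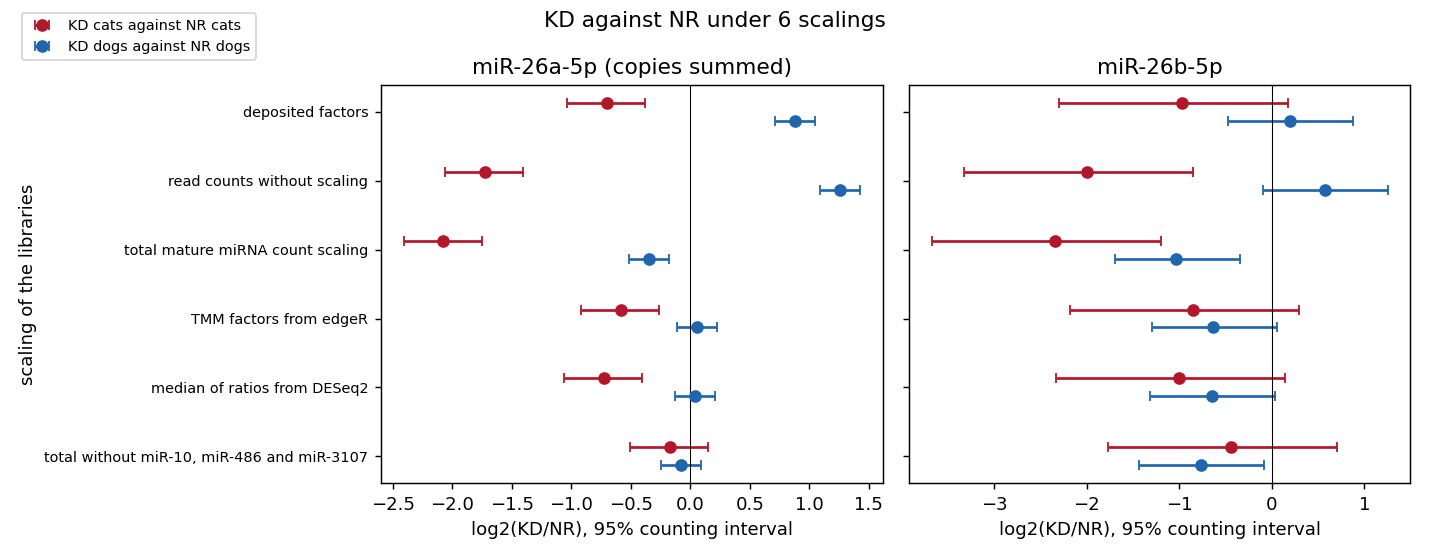
Log2 fold change of KD against NR under 6 scalings for summed miR-26a-5p and for miR-26b-5p, in cats and in dogs. Points are values from 1 library per group and bars are 95% counting intervals. In cats all values are below 0, while in dogs miR-26a-5p ranges from -0.35 to 1.25.

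The ratio of the 2 members needs no scaling, since both were counted in the same library. The ratio of summed miR-26a-5p to miR-26b-5p was 12.8 in KD cats and 10.6 in NR cats, a fold of 1.21 (95% interval 0.523 to 3.13). It was 19.96 in KD dogs and 12.4 in NR dogs, a fold of 1.61 (0.985 to 2.59). Both intervals included 1. miR-26a-5p made up 92.7% of the family reads in KD cats (86.2 to 96.8%), 91.4% in NR cats (88.0 to 94.01%), 95.2% in KD dogs (93.7 to 96.4%) and 92.6% in NR dogs (89.7 to 94.8%). With the larger copy alone the shares were 86.4% in KD cats, 84.2% in NR cats, 90.9% in KD dogs and 86.4% in NR dogs, and the ratio changed by a fold of 1.19 (0.497 to 3.19) in cats and 1.58 (0.951 to 2.58) in dogs. miR-26a-5p was thus the larger member in all 4 libraries under either count, and a change in its share with KD was not detectable at this depth.

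**Figure D4:**
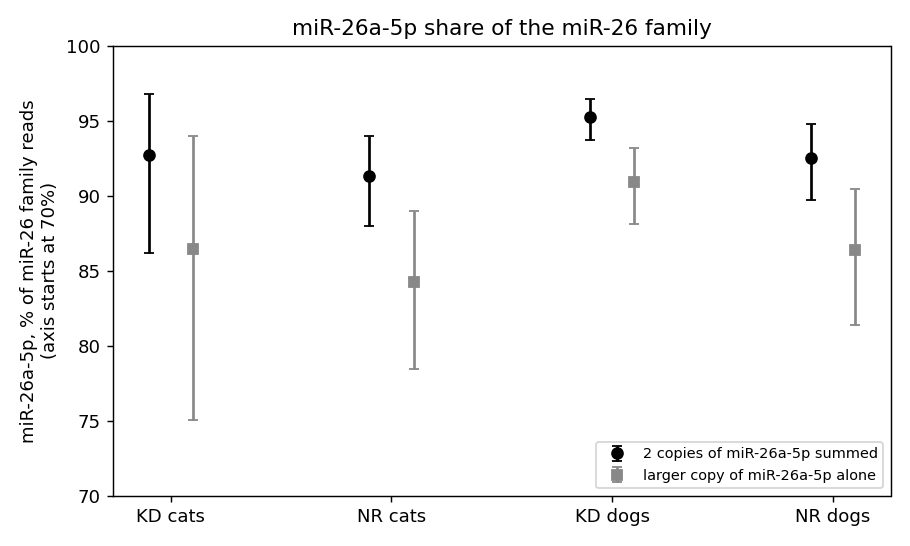
Share of miR-26a-5p in the reads of the miR-26 family, in percent (axis from 70%), in KD cats, NR cats, KD dogs and NR dogs. Circles use the sum of both miR-26a-5p copies, squares the larger copy alone, and bars are exact binomial 95% intervals. With the copies summed the shares run from 91.4% to 95.2%.

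Between species, both members took a lower place among the entries in cats than in dogs. In NR cats against NR dogs the log2 ratio of normalized levels was 0.47 for summed miR-26a-5p (0.26 to 0.68) and 0.70 for miR-26b-5p (-0.04 to 1.45), but the median of all 66 entries with a mean level of at least 10 was 1.79, and 69.7% of them were higher in NR cats by over 2-fold. Only 13 of the 66 entries had a lower ratio than summed miR-26a-5p, and 15 had a lower one than miR-26b-5p. In KD cats against KD dogs the log2 ratio was -1.11 for summed miR-26a-5p (-1.42 to -0.82) and -0.46 for miR-26b-5p (-1.75 to 0.63). The median of the 69 entries was 0.21, and 13% were lower in KD cats by over 2-fold, among which were both copies of miR-26a-5p. Here 6 of the 69 entries had a lower ratio than summed miR-26a-5p and 14 a lower one than miR-26b-5p. Relative to the median entry, summed miR-26a-5p stood at -1.31 in KD and -1.32 in NR. The direction in NR turned with the scaling, since summed miR-26a-5p was lower in NR cats than in NR dogs under 5 of the 6 scalings and higher on the deposited factors alone. Of the 5 lower values 4 had an interval below 0. In KD summed miR-26a-5p was lower in cats under all 6, and past 2-fold in each. The ratio of miR-26a-5p to miR-26b-5p differed between species by a fold of 0.850 in NR (0.495 to 1.46) and 0.639 in KD (0.290 to 1.61), and both intervals included 1. Species and pool cannot be told apart, as each species had 1 pool per group.

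The other miRNAs of the RT-qPCR panel served as partners in further ratios that need no scaling. Since the study picked part of its panel from these same libraries, the directions are a description. Among the 11 partners in cats, the ratio of summed miR-26a-5p to the partner was lower in KD beyond the counting interval for 5, higher for 2 and within it for 4. The lower ones were those to miR-10a-5p and miR-10b-5p, which are encoded in the Hox clusters, to miR-486-5p with miR-3107-5p, which is abundant in red blood cells, to miR-191-5p and to miR-27b-3p. miR-26a-5p per miR-191-5p read was 0.287 in KD cats and 0.659 in NR cats, a fold of 0.436 (0.333 to 0.569). The higher ones were those to miR-22-3p, with a fold of 2.41 (1.81 to 3.20), and to miR-181a-5p, with a fold of 1.63 (1.21 to 2.18). The ratios to let-7b-5p, let-7f-5p, miR-146a-5p and miR-21a-5p had intervals that included 1, and that to miR-21a-5p, a miRNA linked to renal fibrosis, was 0.713 in KD cats and 0.578 in NR cats (fold 1.23, 0.916 to 1.66). With the larger copy alone the ratio to miR-27b-3p also had an interval that included 1 (fold 0.727, 0.497 to 1.05).

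In dogs the ratio was lower in KD for 6 of the 11 partners, higher for 1 and within the interval for 4. miR-26a-5p per miR-21a-5p read was 0.873 in KD dogs and 1.94 in NR dogs, a fold of 0.449 (0.371 to 0.544). Per read of miR-146a-5p, itself a repressor of inflammatory signalling, miR-26a-5p was 9.06 in KD dogs and 37.3 in NR dogs (fold 0.243, 0.117 to 0.459). NR dogs had 11 reads of miR-146a-5p. Against miR-191-5p (fold 1.11, 0.928 to 1.33) and miR-22-3p (1.01, 0.847 to 1.22) the dog intervals included 1. The ratio to miR-181a-5p was higher in KD dogs too, by a fold of 1.63 (1.36 to 1.94), and the ratios to miR-10a-5p, miR-10b-5p and to miR-486-5p with miR-3107-5p were lower in KD in both species. For let-7f-5p, miR-21a-5p, miR-22-3p, miR-27b-3p, miR-146a-5p and miR-191-5p the counting interval included 1 in one species and not in the other, and the difference between species was not tested.

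**Figure D5:**
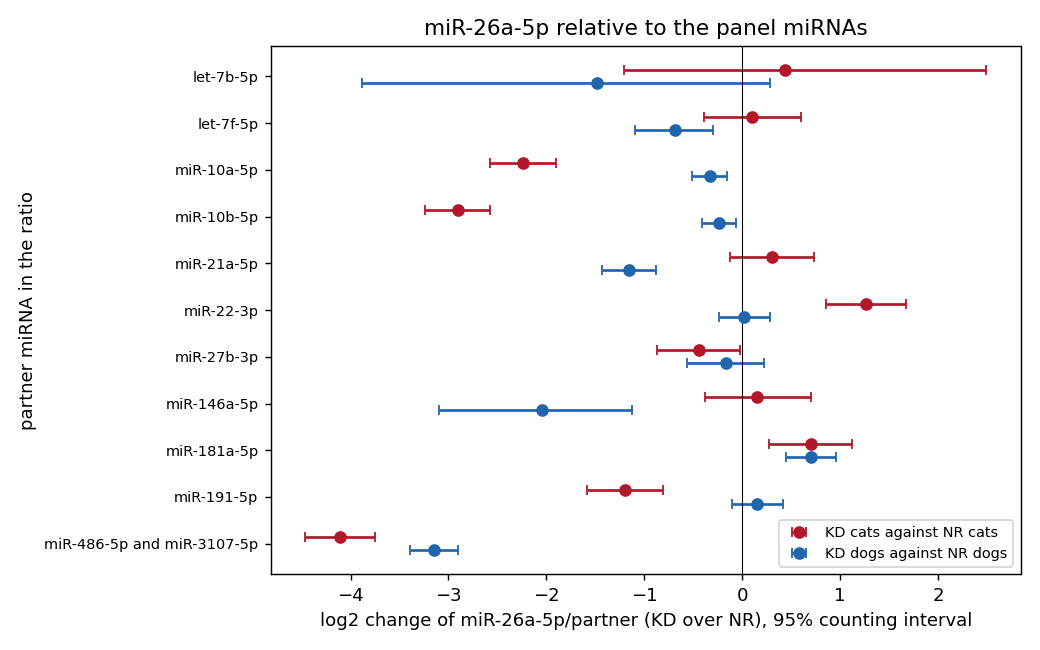
Log2 change, KD over NR, of the within-library ratio of summed miR-26a-5p to each of 11 partner miRNAs in cats and in dogs, with 95% counting intervals. The ratios to miR-10a-5p, miR-10b-5p and to miR-486-5p with miR-3107-5p lie below 0 in both species, and that to miR-181a-5p lies above 0 in both.

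The entries whose pattern over the 4 libraries was most like that of the members were sought among the 40 entries with at least 10 reads in every library. Likeness was the root mean square difference of log2(level + 1) after each entry was centred on its own mean. The nearest to summed miR-26a-5p were miR-148a-3p (0.20), miR-30c-5p on chromosome 1 (0.30), miR-101a-3p (0.34), miR-186-5p (0.38) and miR-200b-3p (0.40), against a median of 0.82 over the 38 entries compared. miR-148a-3p had 31 reads in KD cats, 71 in NR cats, 271 in KD dogs and 105 in NR dogs. Its normalized levels were 73.1, 82.2, 144 and 72.4 in the same order of libraries. On these levels the KD dogs were the highest here too, but the KD cats were not the lowest. The nearest to miR-26b-5p were miR-101a-3p (0.24), miR-30c-5p on chromosome 1 (0.30), miR-28a-3p (0.31) and the copies of miR-26a-5p on chromosomes 10 (0.34) and 9 (0.34), against a median of 0.77 over 40 entries. miR-26b-5p, at 8 reads in KD cats, was itself below the minimum of 10 reads and so could not be among the entries compared with miR-26a-5p.

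A list of miRNAs known from podocytes besides miR-26a held the miR-30 family, miR-23b-3p and miR-24-3p, 7 names at 9 entries. Of the 6 entries with a mean level of at least 10 in cats, 0 were over 2-fold higher in KD and 2 were over 2-fold lower, against 16 higher and 28 lower (35.4%) of all 79 entries. Their median log2 change was -0.72, against -0.54 for all entries. In dogs 2 of 6 were higher and 0 lower, against 28 higher (51.9%) and 0 lower of all 54 entries, with a median of 0.88 against 1.03. miR-30a-5p, the most abundant of them, had 585 reads in KD cats and 1034 in NR cats and stood at 0.20 (0.05 to 0.35) on the log2 scale, and miR-30d-5p had 123 and 234 reads in KD and NR cats (0.10, -0.23 to 0.42). miR-30e-5p, with 78 reads in KD cats and 232 in NR cats, was at -0.55 (-0.94 to -0.17), close to miR-26a-5p. miR-30c-5p on chromosome 1 had 12 and 52 reads in KD and NR cats and was at -1.09 (-2.13 to -0.17). In dogs miR-30a-5p was at 0.83 (0.71 to 0.96), miR-30d-5p at 0.81 (0.59 to 1.04) and miR-30e-5p at 0.93 (0.65 to 1.22), values near that of miR-26a-5p. miR-30b-5p, with 50 reads in KD dogs and 9 in NR dogs, lay higher at 2.10 (1.06 to 3.31). miR-23b-3p was at -2.30 in cats (-5.44 to -0.26), on 2 reads in KD cats and 20 in NR cats, and at 0.15 in dogs (-1.18 to 1.56), on 13 reads in KD dogs and 9 in NR dogs. miR-24-3p, at 5 or fewer reads per entry in every library, was too shallow to compare.

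A second list, of miRNAs tied to TGF-beta signalling and renal fibrosis, held 9 names at 10 entries, of which miR-192-5p is also on the tubule list and miR-200a-3p and miR-200b-3p on the epithelial list used below. Of the 7 measured in cats, 0 were over 2-fold higher and 4 over 2-fold lower in KD, against 35.4% lower among all 79 entries, and their median was -1.005 against -0.54. These list values had 1 added to each level. With 5 added instead, 2 of the 7 were over 2-fold lower, and the median was -0.84 against -0.54. Of the 5 in dogs 1 was higher and 0 lower, against 51.9% higher among all 54, and their median was 0.85 against 1.03. miR-192-5p, which is abundant in the proximal tubule, had 19 reads in KD cats and 70 in NR cats (log2 -0.86, -1.67 to -0.11), and 737 in KD dogs and 304 in NR dogs (0.90, 0.71 to 1.10). Its changes with KD were thus close to those of miR-26a-5p in both species, which were themselves near the median of all entries. Between species it lay lower than miR-26a-5p, at -3.10 in KD cats against KD dogs and -1.36 in NR, with 1 added to each level. Also on the list, miR-21a-5p was at -1.01 in cats (-1.28 to -0.74) and 2.03 in dogs (1.82 to 2.25). miR-22-3p was at -1.97 in cats (-2.22 to -1.73) and 0.86 in dogs (0.66 to 1.06). miR-29a-3p, a repressor of collagen genes, had 2 and 18 reads in KD and NR cats and 6 and 16 reads in KD and NR dogs, with log2 values of -2.14 (-5.30 to -0.08) in cats and -1.79 (-3.43 to -0.36) in dogs. In dogs its mean level was below 10, so it was not among the 5 counted above. The same holds for let-7b-5p in dogs, at 2.36 (0.61 to 4.75) on 20 reads in KD and 3 in NR.

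Markers of other urinary sources differed between the libraries, in part along with disease. The 5 leukocyte miRNAs summed to 0.265% of miRNA reads in KD cats with 3 names at 0, 2.41% in NR cats with 0 names at 0, 0.194% in KD dogs with 1 name at 0 and 0.0287% in NR dogs with 4 names at 0. The 4 red blood cell miRNAs summed to 12.7% in KD cats, 3.29% in NR cats, 9.88% in KD dogs and 1.45% in NR dogs, with 1 name at 0 in each library but NR cats. miR-486-5p with miR-3107-5p held 3024 of these 3025 reads in KD cats, 582 of 615 in NR cats, 6238 of 6258 in KD dogs and 295 of 303 in NR dogs. miR-451a, another red cell miRNA, ran the other way in cats, with a log2 change of -3.50 with 1 added to each level. Its mean level there was 19.7, and almost no reads were left for it in KD cats, so the size of this fall is uncertain. The 4 tubule miRNAs summed to 0.135% in KD cats with 1 name at 0, 0.711% in NR cats, 1.29% in KD dogs and 1.68% in NR dogs. All 7 epithelial miRNAs, of the miR-200 family with miR-203-3p and miR-205-5p, were detected in each library, at 0.450% in KD cats, 0.567% in NR cats, 0.941% in KD dogs and 0.953% in NR dogs. The KD and NR intervals of the epithelial share overlapped in each species, and its summed normalized level was 252 in KD cats against 123 in NR cats, and 316 in KD dogs against 137 in NR dogs. The summed tubule level was 75.4 in KD cats against 154 in NR cats, and 435 in KD dogs against 241 in NR dogs. In dogs miR-192-5p held 737 of the 820 tubule reads in KD and 304 of 350 in NR. The summed leukocyte level was 148 in KD cats against 522 in NR cats, and 65.3 in KD dogs against 4.13 in NR dogs. The summed level of the fibrosis list was 820 in KD cats against 2329 in NR cats, and 1437 in KD dogs against 616 in NR dogs. The tubule, leukocyte and fibrosis sums ran in the same directions as miR-26a-5p on that scale. So did the median of all entries (-0.54 in cats and 1.03 in dogs). The summed level of the podocyte list did not fall in cats, at 1909 in KD against 1856 in NR. In dogs it was 1507 in KD against 836 in NR. The epithelial and red blood cell sums were higher in KD in both species. The part of any source in the miR-26 values was not tested. In such pools less exosome material from a cell type and less miRNA per vesicle cannot be told apart. Nor can RNA of cells lysed when the urine was frozen, which the paper names as a possible contamination.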

How the data were processed

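Small RNA of the urinary exosome-rich fraction was sequenced from 4 pooled libraries. After removal of adaptors and short inserts, the authors aligned reads to mouse mm10 with Bowtie 1.0.0, allowing multiple locations, and counted them over small RNA features in StrandNGS. CASAVA 1.8.2 is named in the submitters' processing notes. The deposited values were read counts and log2 values normalized by TMM in 2031 entries; 4 emptied lines are not analysed here. Zero counts, and log2 results below 0, are written as 0.

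Levels were computed as count times the library's factor. Ratios carry exact conditional (Clopper-Pearson) intervals, shares exact binomial and counts exact Poisson ones at 95%. For a count of 0 a fixed limit of 3 reads was used, which was not taken from those intervals. No test was run with 1 library per group. Alternatives were read counts, total counts, TMM by edgeR 4.0.16, median of ratios by DESeq2 1.42.0 (both within species, or over 4 libraries for cats against dogs), the total with the miR-3107, miR-486 and miR-10 entries left out, single copies, and other minimum levels, folds and pseudocounts. Members, lists and alternatives were chosen with earlier results of these data known. Named entries were the members, their opposite arms, the 5 most alike in pattern, the panel and list members. For counts of entries, each pair of alternative factors (read counts excepted) was set to the geometric mean of the deposited pair. Coverage of the intervals was checked on simulated independent Poisson counts only, which such intervals cover by design. The simulation held no spread between animals and no reads entered at both copies. Python 3.11.15, scipy 1.17.1, pandas 2.3.3 and R 4.3.3 were used. RT-qPCR is not analysed here.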

Additional observations from a re-analysis of the deposited data

Results flagged for a closer look

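On the deposited factors the values of KD against NR ran in opposite directions in cats and dogs for both members. The log2 change in cats minus that in dogs was -1.58 for summed miR-26a-5p (-0.70 in cats and 0.88 in dogs) and -1.17 for miR-26b-5p (-0.97 in cats and 0.19 in dogs). The median of all entries differed in the same way, at -0.54 in cats and 1.03 in dogs. The difference was not tested, since each group was 1 library. The directions of miR-26a-5p were also opposite on read counts and with the factors of edgeR and of DESeq2. For edgeR and DESeq2 the dog values had intervals that included 0. Both directions were negative on total count scaling. They were also negative with the set-aside entries (miR-3107, miR-486 and miR-10) left out of the total (difference -0.09), where both intervals included 0. For miR-26b-5p the directions were opposite on the deposited factors and on read counts only.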

How the results depend on the processing

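No paired analysis was possible because each group was 1 library without a replicate number. Scaling was the choice that mattered, and its effect is a constant added to every log2 value of a comparison. For summed miR-26a-5p, KD against NR cats moved beyond its counting interval on read counts (-1.73), total counts (-2.08) and the total with the set-aside entries (miR-3107, miR-486 and miR-10) left out (-0.17). KD against NR dogs reversed on total counts (-0.35) and without those entries (-0.082, interval -0.25 to 0.09, which includes 0). It moved on read counts (1.25), with edgeR (0.053) and with DESeq2 (0.036). NR cats against NR dogs reversed on read counts (-0.28), total counts (-0.12), edgeR (-1.06), DESeq2 (-1.002) and without those entries (-1.26). On total counts that interval (-0.33 to 0.09) included 0. KD cats against KD dogs moved on read counts (-3.26), total counts (-1.85), edgeR (-1.52) and DESeq2 (-1.71). For miR-26b-5p, KD against NR cats moved on total counts (-2.35). KD against NR dogs moved on total counts (-1.03), edgeR (-0.63), DESeq2 (-0.65) and without those entries (-0.77). NR cats against NR dogs moved on read counts (-0.044), edgeR (-0.83), DESeq2 (-0.77) and without those entries (-1.03), and KD cats against KD dogs on read counts (-2.61). All 12 single-copy settings left the ratio of miR-26a-5p to miR-26b-5p within its interval, and the fold changes of miR-26a-5p did so too. The larger copy alone moved the miR-26a-5p share to 84.2% in NR cats, 90.9% in KD dogs and 86.4% in NR dogs.

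Entries past 2-fold at a mean level of at least 10 numbered 44 in cats (16 higher, 28 lower). They were 48 on read counts (6 higher, 42 lower), 61 on total counts (4 higher, 57 lower), 37 without those entries (23 higher, 14 lower), 27 at a fold of 3, 17 at a minimum of 50 and 178 with no minimum. In dogs they numbered 28 (28 higher, 0 lower), 50 on read counts (49 higher), 13 on total counts (5 higher), 15 with edgeR (11 higher), 15 with DESeq2 (11 higher), 13 without those entries (9 higher), 43 at a fold of 1.5, 15 at a fold of 3, 12 at a minimum of 50 and 142 with no minimum. With a level over 150 in the higher library instead, 11 entries passed in cats (4 higher, 7 lower), 11 without those entries (7 higher, 4 lower), 10 with edgeR (5 higher, 5 lower), 17 on read counts (3 higher), 24 on total counts (2 higher), 17 at a fold of 1.5, 7 at a fold of 3 and 24 at a minimum of 50. In dogs 7 passed (7 higher, 0 lower), 21 on read counts, 5 on total counts (3 higher, 2 lower), 4 each with edgeR, DESeq2 and without those entries, 15 at a fold of 1.5 and 16 at a minimum of 50. The depth of miR-26b-5p, 8 reads in KD cats, limits every statement on it.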
